A study of Mus musculus with 4 samples.

Results

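The kinesin family was read out in sorted retinal interneurons of the mouse. Its members were taken as every gene whose symbol is Kif with a number and at most 1 further letter, with Kifc1, Kifc2, Kifc3, Kifap3, Klc1 and Klc2. Of 44 such symbols in the RefSeq table, 42 had a probe set annotated to that gene alone, out of 18193 genes with such a probe set. Klc2 and Kif19a were not analysed here. Each member was represented by its brightest probe set, and all 42 together had 108 probe sets. The members were split by known role into 19 transport kinesins, 13 mitotic kinesins and 10 others, which act at microtubule ends or in cilia, do not walk, or are little known.

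MP-positive amacrine and bipolar cells were compared, 2 arrays each. All came from pups of mixed C57Bl6 and CD1 background at postnatal day 6, sired by carriers of the MP transgene, and all sorted cells of both groups expressed CFP. Amacrine cells were CFP-positive and VC1.1-positive, and bipolar cells were CFP-positive cells left negative for VC1.1 after magnetic removal of labelled cells. About 1000 cells from a different litter made each replicate, and their RNA was amplified in 2 rounds before Affymetrix arrays. Only CFP-positive cells were kept, so neither group covers its whole cell class.

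Kinesins are motors that hydrolyse ATP to move along microtubules, most of them toward the plus end. In neurons the kinesin-1, kinesin-2 and kinesin-3 motors carry vesicles, mitochondria and receptors outward into axons and dendrites, and kinesin-2 also builds cilia. A separate set of kinesins works only or mainly in the spindle of dividing cells, and is mostly switched off as neurons leave the cell cycle. Amacrine cells are inhibitory interneurons, many without an axon, and bipolar cells carry signals from photoreceptors along a short axon.

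Of the 29 members that could be tested, 4 differed between the cell types. Kif26a, a kinesin relative that does not use ATP to walk, was the member with the largest difference and was higher in amacrine cells by 5.11 on the log2 scale (SE 0.24). Kif16b, an endosome motor, was the largest difference the other way, at -2.64 (SE 0.26). Kif27 (1.20, SE 0.21) was also higher in amacrine cells and Kif22 (-0.88, SE 0.20) in bipolar cells. The other 25 tested members lay between -0.77 and 0.73, and none of them passed the test, which does not show that they were equal. Fold changes are MP amacrine minus MP bipolar on the log2(intensity + 16) scale, with limma's test at a Benjamini-Hochberg adjusted p under 0.05 over 11583 genes, and they understate the difference of dim genes.

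To be tested, a probe set had to exceed the median intensity of its array on 2 or more arrays, and 29 of the 42 did. The array medians were 44.5 to 47.1. Of the 29, 4 were called, or 13.8%, against 13.5% of all tested genes, so the share of called members was near the background. By direction, 2 were higher in amacrine cells (6.90% against 6.54% of all tested genes) and 2 in bipolar cells (6.90% against 6.92%). The groups did not overlap for 20 of the 29, or 69.0%, against 53.3% of all tested genes. Of these 20, 15 had both amacrine arrays above both bipolar arrays (51.7%, against 24.2% of all tested genes) and 5 had them below (17.2% against 29.1%). The median fold change was 0.17 over the members and -0.03 over all tested genes, and it stayed between 0.15 and 0.17 for the members under quantile, loess and median scaling. These differences between a member list and all genes were not tested.

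**Figure D1:**
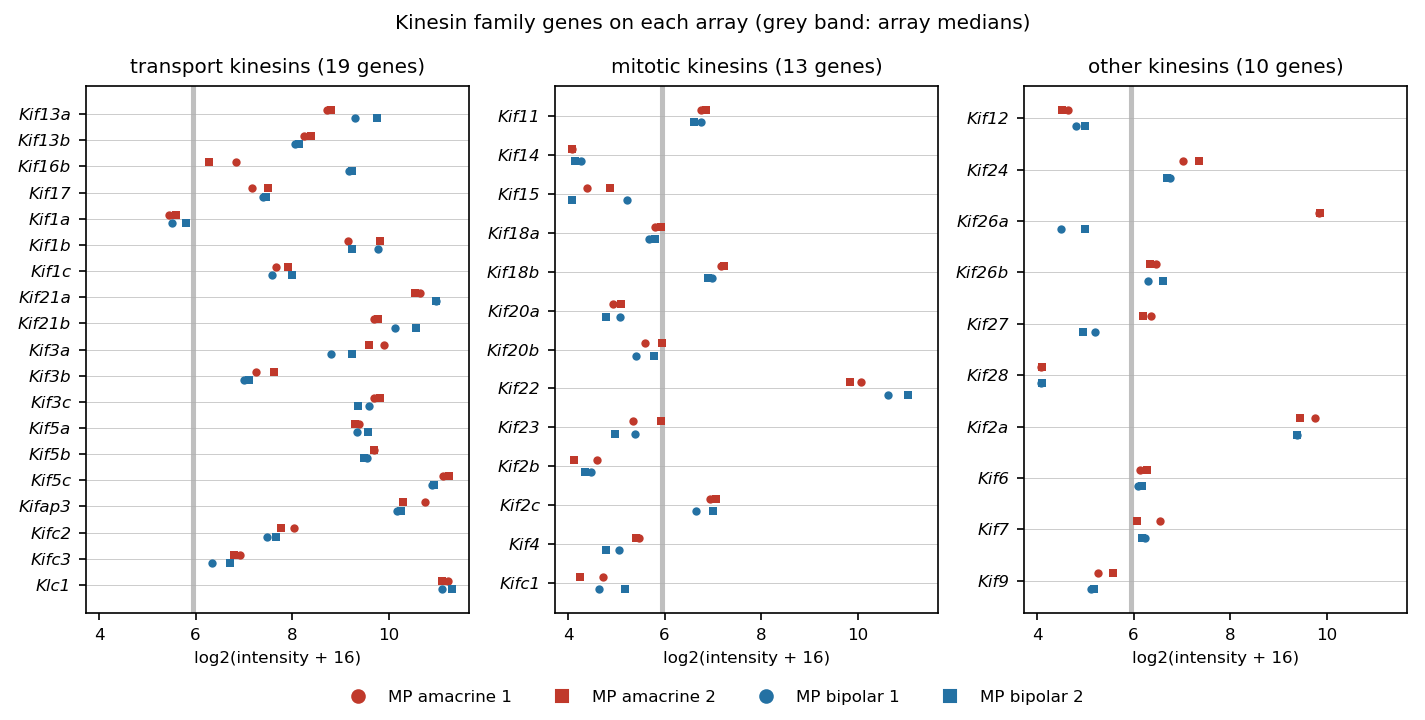
Intensity of the brightest probe set of each of the 42 kinesin family members on the 4 arrays, as log2(intensity + 16), by role and in alphabetical order; circles are replicate 1, squares replicate 2, and the grey band spans the array medians. Most points of a gene lie close together, Kif26a, Kif27 and Kif16b are split by cell type, and 9 of 13 mitotic kinesins lie below the medians.

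**Figure D2:**
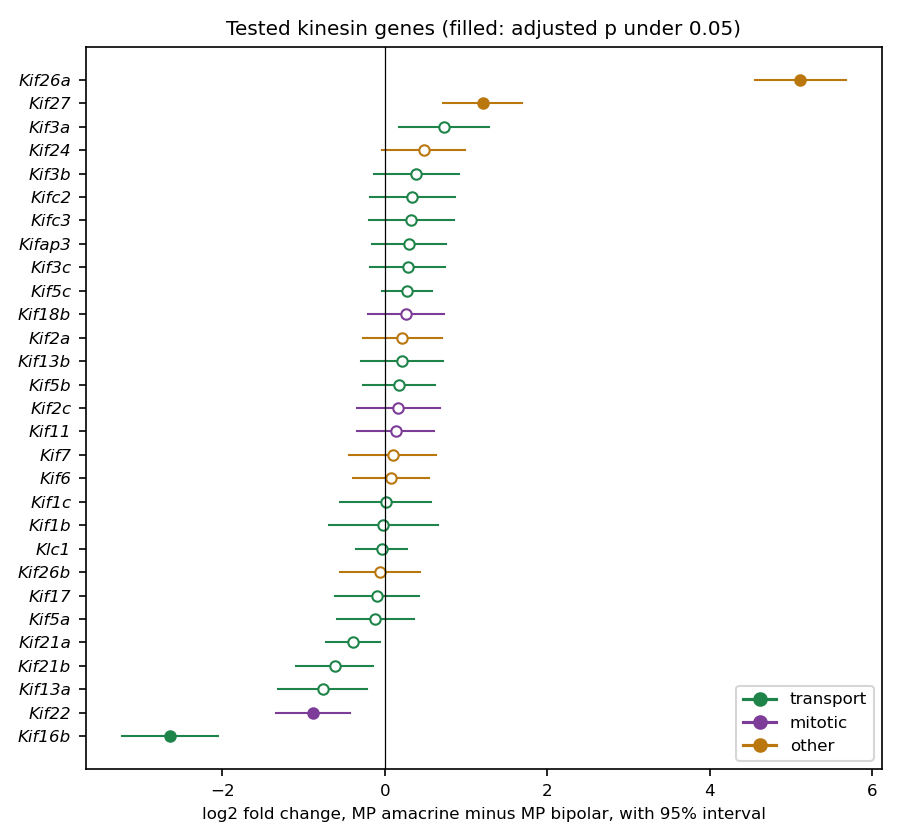
Log2 fold change, MP amacrine minus MP bipolar, of the 29 tested members with the 95% interval from limma's fit (n = 2 arrays per group), coloured by role. The 4 filled points are Kif26a and Kif27 on the amacrine side and Kif22 and Kif16b on the bipolar side.

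The arrays were checked against their labels and for quality. Of 10 tested amacrine markers 9 were higher in amacrine cells, and 4 of these 9, Neurod6, Calb2, Tfap2b and Tfap2c, passed the filter only through the amacrine arrays. Pax6, Meis2, Slc32a1, Slc6a9 and Tfap2a were above the median on at least 1 bipolar array as well. The amacrine marker Gad2 (0.25, adjusted p = 0.635, limma) did not pass the test and had overlapping groups, and Gad1 did not pass the filter. Toward bipolar cells, 6 of 9 tested bipolar markers were higher in bipolar cells. Fezf2 was among these 6 and passed the filter only through the bipolar arrays. The bipolar markers Isl1 (0.64, adjusted p = 0.0835, limma), Prkca (0.25, adjusted p = 0.557, limma) and Pcp2 (-1.21, adjusted p = 0.184, limma) did not pass, and Trpm1 lay below the filter. MP amacrine replicate 2 stood apart in RNA quality. The log2 gap between the 3-prime and 5-prime Gapdh control probe sets reached 3.21 there, while the remaining arrays had 1.78, 1.95 and 2. Of 6 tested Müller glia markers 3 were higher in amacrine cells (Vim, Slc1a3 and Dkk3). Slc1a3 passed the filter only through the amacrine arrays. Clu went the other way without passing, at 188 and 128 against 261 and 323 (-0.84, adjusted p = 0.0760, limma). Its 3 other probe sets above the filter gave -1.43 to -0.58. All 9 Müller glia markers summed to 4398 and 4112 in amacrine and 2119 and 2731 in bipolar cells. Vim alone was at 1672 and 1518 against 108 and 233. Aqp4, Sox9 and Hes1 lay below the array median throughout. Photoreceptor markers summed to 7088 to 11849 with overlapping groups. Among them Crx was higher in bipolar cells (-0.97, adjusted p = 0.0152, limma), and Nrl (0.81) and Pde6b (0.77) had both amacrine arrays above both bipolar arrays without passing. Opn1sw (-1.74, adjusted p = 0.0621, limma) had both bipolar arrays above both amacrine arrays without passing, and its other probe set above the filter gave -0.09. Summed microglia markers ranged from 237 to 3540 with overlapping groups, and Csf1r was higher in amacrine cells (1.11, adjusted p = 0.0484, limma). Of 3 tested ganglion cell markers, Thy1 was higher in bipolar cells (-1.41, adjusted p = 0.0131, limma). Nefl, at 1102 and 87.5 in amacrine and 68.6 and 45.7 in bipolar cells, and Pou4f1 (1.08) did not pass. The part of glia, photoreceptor, microglia and ganglion cell signals in the kinesin results was not tested. With amplified bulk RNA, fewer cells of a type and less RNA per cell cannot be told apart.

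Among the transport kinesins, 18 of 19 passed the filter, all of them through arrays of both groups, and 1 was called, higher in bipolar cells (5.56%, against 6.92% of all tested genes). None was called higher in amacrine cells by limma (6.54% of all tested genes). At an unadjusted p under 0.05 there was 1 toward amacrine cells, Kif3a (5.56%, against 11.1% of all tested genes). Toward bipolar cells there were 4, Kif16b, Kif13a, Kif21b and Kif21a (22.2%, against 13.6%). The median fold change of the 18 tested transport kinesins was 0.09. Of kinesin-1, the main motor of fast axonal transport, the 4 subunits among the members (Kif5a, Kif5b, Kif5c and Klc1) were not called, while a light chain outside the naming rule, Klc3, was and is given with the adaptors. Its neuronal heavy chain Kif5c had intensities of 2205 and 2423 in amacrine cells and 1895 and 1940 in bipolar cells. Both amacrine arrays were the higher, but the fold change was 0.27 (95% interval -0.04 to 0.58, adjusted p = 0.272, limma). Kif5a, the heavy chain made only by neurons, was at 649 and 613 against 632 and 741, with overlapping groups. Kif5b, the heavy chain made by nearly all cells, was at 809 and 819 against 732 and 707, a fold change of 0.18. The light chain Klc1, which links the heavy chains to cargo, was at 2376 and 2173 against 2175 and 2511, a fold change of -0.04 (95% interval -0.36 to 0.28). The intervals of all 4 exclude a 2-fold difference either way for these probe sets.

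Kinesin-2, a heterotrimer that carries vesicles and drives transport within cilia, had no called subunit. Kif3a, the motor subunit shared by its complexes, had intensities of 947 and 757 in amacrine cells and 433 and 591 in bipolar cells. The groups did not overlap, and the fold change of 0.73 (SE 0.24) did not pass (adjusted p = 0.0950, limma). All 4 Kif3a probe sets lay above the filter and were higher in amacrine cells, by 0.73 to 1.46. The 2nd brightest, at 687 and 570 against 155 and 302, passed when every probe set was tested singly (1.46, SE 0.33, adjusted p = 0.0380, limma), an alternative chosen after seeing the data. The call on Kif3a differed between probe sets, and its direction did not.

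The partners of Kif3a gave smaller values. Kif3b was at 137 and 181 against 112 and 122, a fold change of 0.39 (adjusted p = 0.355, limma). Kif3c, a neuronal partner, was at 818 and 882 against 751 and 642, a fold change of 0.29. The accessory subunit Kifap3, which binds cargo, was at 1698 and 1238 against 1141 and 1213, a fold change of 0.30. In all 3 both amacrine arrays lay above both bipolar arrays, as in 24.2% of all tested genes, and none passed the test. Kif17, which works as a homodimer and moves NMDA receptor vesicles in dendrites, was at 127 and 165 against 152 and 160, with overlapping groups.

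Kinesin-3 held the transport member that differed. Kif16b moves early endosomes through a lipid-binding PX domain. Its intensities were 98.9 and 61.6 in amacrine cells and 562 and 585 in bipolar cells, so both bipolar arrays were well above both amacrine arrays. The fold change of -2.64 (SE 0.26, adjusted p = 3.57e-04, limma) passed the test. That probe set, 1429063_s_at, is of a class that can match several transcripts. The 2 other Kif16b probe sets lay below the filter. The probe set 1429062_at, at 4.66 and 2.05 against 31.5 and 43.6, pointed the same way, and 1458694_at, at 22.1 and 22.1 against 21.8 and 15.2, did not. With the mean of the 3 probe sets the fold change was -1.32 (adjusted p = 0.00389, limma), and without that class of probe set Kif16b could not be tested.

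The other kinesin-3 motors were not called. Kif13a, a motor of recycling endosomes, was at 407 and 429 against 613 and 850, a fold change of -0.77 (SE 0.24, adjusted p = 0.0762, limma). Its relative Kif13b was at 287 and 318 against 251 and 268, a fold change of 0.21 (adjusted p = 0.641, limma). Kif1b, a motor of mitochondria and synaptic vesicle precursors, was at 554 and 886 against 860 and 586, so replicates of each group differed more than the groups did. Of its 6 probe sets above the filter, 4 had the higher mean in bipolar cells and 2 in amacrine cells, from -1.36 to 0.29, and none was called when tested singly. Kif1c was at 188 and 226 against 176 and 239, with overlapping groups. Kif1a, the synaptic vesicle precursor motor of axons, was below the array median on every array, at 27.5 and 32.3 against 29.7 and 39.8, and its 2nd probe set lay between 23.1 and 41.7. A low signal on these probe sets does not show that Kif1a RNA is low.

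The remaining transport members were Kif21a and Kif21b, which walk and also restrain microtubule growth, and the minus-end motors Kifc2 and Kifc3. Kif21a was at 1592 and 1472 against 2000 and 2016, a fold change of -0.39 (adjusted p = 0.132, limma). Kif21b was at 815 and 857 against 1110 and 1503, a fold change of -0.62 (adjusted p = 0.0964, limma). In both, the bipolar arrays lay above the amacrine arrays, as in 29.1% of all tested genes. Kifc2 (0.34) and Kifc3 (0.33) had both amacrine arrays above both bipolar arrays, with adjusted p of 0.429 and 0.442 (limma).

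Across the family, 13 tested members had more than 1 probe set above the filter, and in 8 of them those probe sets all pointed in 1 direction. The exceptions were Kif13a, Kif17, Kif1b, Kif1c and Klc1. For Klc1 the 2nd probe set, 1428881_at, was called in favour of amacrine cells when tested singly (1.02, SE 0.23, adjusted p = 0.0389, limma), at 66.4 and 57.6 against 28.6 and 17.2. It passed the filter only through the amacrine arrays.

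The mitotic kinesins were mostly below the filter. Of 13, 9 were not tested, with intensities of at most 45.5 on any array. They were Kif4, Kif14, Kif15, Kif18a, Kif20a, Kif20b, Kif23, Kif2b and Kifc1, which work in chromosome movement, the spindle midzone or cytokinesis. The 4 tested members were Kif11, which pushes spindle poles apart, the microtubule depolymerisers Kif18b and Kif2c, and the chromosome arm motor Kif22. Kif11 was at 91.9 and 101 against 91.5 and 81.3 (0.13), Kif18b at 128 and 134 against 111 and 103 (0.26), and Kif2c at 107 and 117 against 85.2 and 112 (0.17). None of these 3 passed, with adjusted p of 0.509 or above (limma). The other Kif11 probe sets lay below the filter, at 20.8 or less on every array. Of the 4 Kif2c probe sets, 2 passed the filter and the others lay at 14.1 or less.

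Kif22 was the mitotic member that was called. Its intensities were 1051 and 901 in amacrine cells and 1562 and 2081 in bipolar cells, a fold change of -0.88 (SE 0.20, adjusted p = 0.0219, limma). That value rests on 1437716_x_at, a probe set of a class that can match several transcripts. The 2 other Kif22 probe sets lay at 29.3 or below on every array, with differences of -0.08 and 0.23. The call was lost without MP bipolar replicate 2 (adjusted p = 0.207, limma), without MP amacrine replicate 2 (adjusted p = 0.0654, limma) and with the mean of the probe sets (-0.24, adjusted p = 0.519, limma).

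Most promoters of the mitotic kinesins held a short sequence, shown here because the choice of members did not use it. The cell cycle genes homology region, CHR, is a short element, TTTGAA, through which genes of late cell division are known to be repressed in resting cells. The RefSeq promoter table (GRCm38.p6, 300 bases around each start) held 34 of the 42 members. TTTGAA or its reverse complement was found in 10 of 12 mitotic kinesin promoters (83.3%), 1 of 13 transport kinesin promoters (7.69%) and 2 of 9 others, against 20.2% of all 27025 genes in the table. Within 25 bases of the start, a distance chosen after the matches were seen, it was found in 8 of 12 mitotic (66.7%), 0 of 13 transport and 1 of 9 other promoters, against 3.16% of all genes. A match to these letters is a description and not a mapped site.

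The match nearest the start is in capitals, with 12 bases on each side, read 5′ to 3′ on the strand of the gene.
Kif11 (chr19:37376351-37376380, + strand): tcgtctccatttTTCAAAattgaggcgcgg
Kif15 (chr9:122951050-122951079, + strand): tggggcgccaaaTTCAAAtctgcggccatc
Kif18b (chr11:102925104-102925133, - strand): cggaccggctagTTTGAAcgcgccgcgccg
Kif20b (chr19:34922353-34922382, + strand): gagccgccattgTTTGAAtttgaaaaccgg
Kif22 (chr7:127042420-127042449, - strand): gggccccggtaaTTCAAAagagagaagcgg
Kif23 (chr9:61946780-61946809, - strand): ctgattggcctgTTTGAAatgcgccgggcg
Kif4 (chrX:100626072-100626101, + strand): ctctgggatcaaTTTGAAacttggcggtta
Kifc1 (chr17:33890615-33890644, - strand): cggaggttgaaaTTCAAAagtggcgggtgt
In Kif11 and Kif15 the match began 19 bases before the start, in Kif22 17 bases before, and in Kifc1, Kif23, Kif18b, Kif20b and Kif4 1, 2, 3, 7 and 19 bases after. Kif15, Kif20b and Kif22 held 2 matches each. The matches in Kif14 and Kif2c lay further upstream, at -228 and -103. A CCAAT box (CCAAT, either strand), often found upstream of a CHR, was in 8 of 12 mitotic promoters (66.7%) and 4 of 13 transport promoters (30.8%), against 41.1% of all genes. All 4 tested mitotic members held the CHR letters, and of the untested ones Kif18a and Kif2b did not.

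Other genes of cell division were set beside the mitotic kinesins. Of 28 with a probe set, 15 passed the filter, and 13, Mki67 and Top2a among them, did not. Of the 15, 3 were called, 1 toward amacrine and 2 toward bipolar cells (20% called, against 13.5% of all tested genes), with a median of -0.04. The spindle protein Nusap1 (0.83, adjusted p = 0.0380, limma) passed the filter only through the amacrine arrays. The cytokinesis factor Ect2 (-1.29, adjusted p = 0.0156, limma) and the chromosome passenger protein Incenp (-1.17, adjusted p = 0.0140, limma) were higher in bipolar cells, and the 2 other Incenp probe sets above the filter gave -0.52 and -0.30. Without MP bipolar replicate 2 none of the 15 was called, and without MP bipolar replicate 1, 1 was. Without MP amacrine replicate 2, 3 were called, all higher in bipolar cells, and without MP amacrine replicate 1, 4 were, 2 in each direction. Mki67, the usual marker of cycling cells, was at 37.6 and 67.8 in amacrine and 19.7 and 15.0 in bipolar cells, with 1 amacrine array above its median.

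Among the other kinesins, 7 of 10 passed the filter and 2 were called, both higher in amacrine cells (28.6%, against 6.54% of all tested genes). Both passed the filter only through the arrays on which they were high, so the count supports nothing further. Kif26a lacks ATPase activity, binds microtubules and is known as a regulator of signalling by the receptor Ret in enteric neurons. Its intensities were 907 and 918 in amacrine cells and 6.53 and 15.9 in bipolar cells, so the amacrine replicates were close and both bipolar arrays lay below their medians. The fold change of 5.11 (SE 0.24, adjusted p = 1.70e-05, limma) depended in size on the offset, since both bipolar values were dim. It was 6.34 with an offset of 1 and 3.70 with an offset of 64, and 4.86 to 5.37 with each array left out in turn. It passed the filter only through the amacrine arrays, and its value rests on 1 probe set, 1447933_at.

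Kif26b, the closest relative of Kif26a, was at 72.2 and 64.5 against 63.2 and 81.3, with overlapping groups and a fold change of -0.06 (95% interval -0.56 to 0.44). Kif27, a kinesin-4 relative that serves motile cilia, was at 66.4 and 57.7 in amacrine cells and 21.0 and 15.0 in bipolar cells. Its fold change was 1.20 (SE 0.21, adjusted p = 0.00694, limma), and 1.75 with an offset of 1 and 0.62 with an offset of 64. Kif27 also passed the filter only through the amacrine arrays, and without MP bipolar replicate 2 it was not called (adjusted p = 0.0530, limma). Kif7, its paralogue in Hedgehog signalling at the primary cilium, was at 77.5 and 51.1 against 59.8 and 56.2, with overlapping groups.

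The remaining members of this group were not called. Kif24, a centriole protein that restrains cilium formation, was at 115 and 148 against 92.0 and 86.8 (0.48, adjusted p = 0.229, limma). Kif2a, a microtubule depolymeriser that limits axon branches, was at 854 and 679 against 656 and 654 (0.21, adjusted p = 0.618, limma). Kif6 (0.08) had overlapping groups, and Kif9, Kif12 and Kif28 lay below the filter with intensities of 31.8 or less.

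The adaptors and regulators of transport kinesins link the motors to cargo or control them. Of 26 tested adaptors and regulators, 12 were called (46.2%, against 13.5% of all tested genes), 3 higher in amacrine cells (11.5% against 6.54%) and 9 higher in bipolar cells (34.6% against 6.92%). Their median was -0.22. The difference from the motors was not tested. Higher in bipolar cells were 6 after quantile scaling, 7 after cyclic loess and 6 after median scaling. With no filter there were 3 and at an adjusted p under 0.01 there were 4, where 4.31% and 7.62% of all tested genes were called. The count higher in bipolar cells was 3 without MP bipolar replicate 2, where 7.92% of all tested genes were called, 6 without MP amacrine replicate 2, and 5 when the 2nd brightest probe set was used.

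Grip1, which couples kinesin-1 to AMPA receptors, was at 1024 and 1695 in amacrine cells and 280 and 132 in bipolar cells. Its fold change was 2.67 (SE 0.37, adjusted p = 0.00238, limma), and its 2nd probe set gave 2.04. Map7, which recruits kinesin-1 to microtubules, was at 887 and 759 against 2607 and 2777 (-1.69, SE 0.16, adjusted p = 3.36e-04, limma), and both its other probe sets above the filter had the same sign. Sybu, syntabulin, which links kinesin-1 to presynaptic membrane cargo, was at 121 and 112 against 369 and 586 (-1.87, SE 0.27, adjusted p = 0.00271, limma). Mapk8ip3, known as JIP3, a scaffold between kinesin-1 and vesicles, was at 47.3 and 46.1 against 200 and 311 (-2.08, SE 0.25, adjusted p = 0.00115, limma). Its 2 other probe sets above the filter gave 0.09 and 0.20, so the direction of Mapk8ip3 was not settled.

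The other called adaptors had smaller differences. Cask (0.97) and Nin (1.46) were higher in amacrine cells. Nin passed the filter only through the amacrine arrays, and ninein is a protein that anchors microtubules at centrosomes more than a cargo adaptor. Klc3 (-1.32), a kinesin light chain, Hap1 (-1.30), a huntingtin partner, Trak2 (-1.25), a mitochondrial adaptor, Map7d2 (-1.10), Mapk8ip1 (-0.95) and Lin7a (-0.79) were higher in bipolar cells. Of these 8, the 2nd probe set of Lin7a gave 0.25 and that of Mapk8ip1 gave 0.0020. Kidins220 (0.10), Kifbp (-0.03), Rhot1 (0.18) and Trak1 (-0.44) were among the 14 not called.

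**Figure D3:**
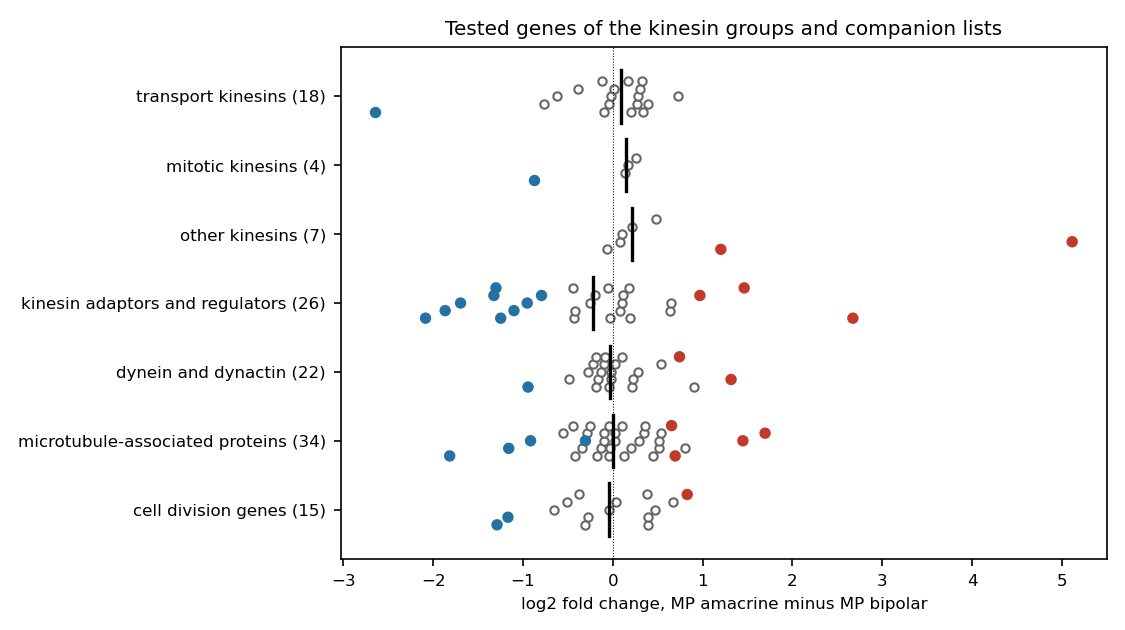
Log2 fold change, MP amacrine minus MP bipolar, of the tested genes in the 3 kinesin groups and 4 companion lists, with the number tested in brackets; red and blue points passed the test, open points did not, and black bars are medians. Adaptors and regulators hold 12 called genes of 26 (46.2%) and transport kinesins 1 of 18 (5.56%), against 13.5% of all tested genes. The difference between these lists was not tested.

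Dynein and dynactin, the motor complex that runs to the minus end against the kinesins, had 3 of 22 tested genes called (13.6%, against 13.5% of all tested genes), with a median of -0.03. The dynein intermediate chains Dync1i1 (120 and 74.9 against 38.9 and 20.3, 1.32) and Dync1i2 (1873 and 1695 against 1088 and 1029, 0.74) were higher in amacrine cells. The light chain Dynlt3 was higher in bipolar cells, at 774 and 695 against 1260 and 1610 (-0.94). Their adjusted p lay between 0.0168 and 0.0199 (limma), and none of the 3 passed without MP bipolar replicate 2. Dync1i1, which passed the filter only through the amacrine arrays, was also lost without MP amacrine replicate 1, and Dync1i2 without MP bipolar replicate 1. The heavy chain Dync1h1 gave 0.23 and was not called.

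Of 34 tested microtubule-associated proteins and tubulins, 4 were higher in each group (23.5% called, against 13.5% of all tested genes), with a median of -0.0013. The split depended on scaling, with 6 higher in amacrine and 1 in bipolar cells after quantile scaling, 5 and 2 after cyclic loess, and 4 and 2 after median scaling. The severing enzyme Fign (1.70) and tau, Mapt (1.45), were higher in amacrine cells with adjusted p of 0.00210 and 5.83e-04 (limma). Mapt was at 2472 and 2460 against 936 and 852, while its other probe sets ranged from -0.29 to 2.31. The tubulin polyglutamylase Ttll7 (-1.81) and the stabiliser Map6 (-1.16) were higher in bipolar cells, with adjusted p of 0.00250 and 0.0396 (limma). The count higher in bipolar cells was 1 without either bipolar replicate, and the count higher in amacrine cells was 6 without MP amacrine replicate 2.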

How the data were processed

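Per the labels, total RNA of sorted cells was amplified in 2 rounds and hybridised to Affymetrix arrays. The authors deposited linear-scale intensities of 45101 probe sets for each of 4 arrays, with no detection calls. The software and scaling behind them are not given in the sources used here. Samples were grouped by their titles.

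After 64 control probe sets were left out, 34945 probe sets had exactly 1 gene in the platform annotation. The brightest probe set (highest mean log2 value) stood for each gene, and values were used as log2(intensity + 16). MP amacrine and MP bipolar arrays were compared with limma 3.58.1 in R 4.3.3 (lmFit, eBayes with an intensity trend, 2 residual degrees of freedom), two-sided, with Benjamini-Hochberg adjustment over 11583 tested genes. The number of arrays limits the precision.

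The members, their roles and the companion lists were chosen with earlier results of these data known, and lists are described by counts and medians with no list test. The naming rule took every member, and of each companion list up to 4 called genes by absolute fold change. The other companion genes, the cell type markers given with values, and the promoter motifs were chosen after values were seen. RefSeq names (GRCm38.p6) changed 0 symbols. Alternatives were scaling, filter, offset, probe set choice, moderation, array weights, thresholds, a replicate block and each replicate left out, where the genes tested stayed the same.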

Additional observations from a re-analysis of the deposited data

How the results depend on the processing

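The 4 calls, Kif26a and Kif27 higher in MP amacrine and Kif16b and Kif22 higher in MP bipolar cells, were the same genes under quantile, loess and median scaling, offsets of 1 and 64, other variance moderation and array weights. With each replicate left out, the total ranged from 2 to 4, the count higher in amacrine cells from 1 to 2 and that higher in bipolar cells from 1 to 2; the lone remaining array is then taken to have the spread of the intact group. The count higher in bipolar cells was 1 with no filter, with the mean of probe sets, at an adjusted p under 0.01 and with at least a 2-fold difference, each time without Kif22. It was 0 (limma) with the 2nd brightest probe set and without the _x_ and _s_ classes of probe set, because Kif16b and Kif22 then lay below the filter; without those classes the total was 2. The count higher in amacrine cells was 1 with the filter at the 75th percentile, which Kif27 did not pass. It was 4 with the 2nd brightest probe set and with every probe set tested singly (added after seeing the data), where Kif3a and Klc1 joined. With the 2nd brightest probe set Klc1 reversed to 1.02 and Mapk8ip3 to 0.20, and the cause was not tested. Of the single-gene values under all settings, 45 lost the call and 1 gained it, and 778 stayed on their side of the threshold. Of those 778, 23 changed sign without being called, in 8 genes (Kif17, Kif1b, Kif1c, Kif26b, Kif2c, Kif5a, Kif7 and Klc1). Without MP bipolar replicate 2 Kif27 and Kif22 were lost, and without MP amacrine replicate 2 Kif22. Replicate numbers are shared by the groups, but the labels do not say that they pair samples, and the deviations of same-numbered arrays correlated at -0.04 across genes. With the replicate block the count of called members was 4, the same genes, and 1932 genes were called in all against 1559. Over all genes the calls numbered 785 with no filter, 830 with the 2nd brightest probe set, 883 at an adjusted p under 0.01 and 917 without MP bipolar replicate 2. Signals below the array median limit what can be said of Kif1a and 9 mitotic kinesins.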

Other observations

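Kif26a is known from enteric neurons to bind Grb2 and to limit signalling by the receptor Ret, so the values of both were read, a choice made after seeing the data. Ret was at 3234 and 2801 in MP amacrine cells and 21.6 and 19.3 in MP bipolar cells. Its fold change of 6.38 (log2 scale, SE 0.22) had an adjusted p of 1.21e-05 (limma). Grb2 was at 189 and 155 against 175 and 136, with overlapping groups and a fold change of 0.14 (adjusted p = 0.799, limma). The signal of Kif26a, like that of Ret, was above the array median on both amacrine arrays and below it on both bipolar arrays. Both genes thus passed the filter only through the amacrine arrays, and a link between them was not tested.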
